A study of Mus musculus with 4 samples.

Results

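The genes described here are the ligands and receptors that control the formation of osteoclasts, the cells that resorb bone. They are Tnfsf11 (RANKL), Tnfrsf11b (osteoprotegerin, OPG), Tnfrsf11a (RANK), Csf1 (M-CSF), Il34 (interleukin-34) and Csf1r (the M-CSF receptor). These 6 members, chosen by gene symbol, are among the 32285 genes of a CITE-seq data set, in which the mRNA of single cells was read together with 1 oligonucleotide-tagged antibody, against CD24. For its single-cell sequencing the study names untreated male and female INK-ATTAC mice of old age only. It states that all its young mice were untreated but names no strain for a young library of that sequencing. There was 1 young library of 6 months and 1 old library of 24 months. The labels read here give no number of animals per library. Below, the young or old mouse therefore stands for the animal or animals of 1 library. INK-ATTAC mice carry an inducible caspase 8 driven by a fragment of the p16 promoter. Cells of femur and tibia were freed from marrow and from bone by enzymes, cleared of blood lineage cells with magnetic beads, and sorted as CD45- cells that took up no SYTOX dye. With 1 library per age, age, animal and library cannot be told apart, and a difference between the ages carries no p-value.

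RANKL is a membrane-bound or shed cytokine of the TNF family that binds RANK on osteoclast precursors and drives their fusion and activation. OPG is a soluble decoy receptor that captures RANKL, so the balance of both sets how much RANKL can reach RANK. M-CSF and interleukin-34 both signal through the M-CSF receptor, which keeps monocytes, macrophages and osteoclast precursors alive. In bone, RANKL is known from osteoblasts, osteocytes, hypertrophic chondrocytes and marrow stromal cells, while RANK and the M-CSF receptor belong mostly to blood-derived cells, which the sort was designed to remove.

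The young library held 10063 cells and 81076421 unique molecular identifiers (UMIs, each counting 1 captured mRNA molecule) after cells with under 200 genes or over 20% mitochondrial UMIs were left out. The old library held 5607 cells and 66702846 UMIs. The median cell was deeper at 24 months, at 9711 UMIs against 6385, and 19 kept barcodes occurred in both libraries. Levels are given as CPM, the UMIs of a gene per 1000000 UMIs of all genes in the same cells, with 95% exact Poisson intervals that cover counting error only. A 3′ library yields 1 end per molecule, so levels of different genes are not scaled by gene length, although capture may differ between genes.

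Cells were placed in groups by marker genes that include none of the members, and each name means a likeness to those markers. Stromal-like cells (Lepr, Adipoq, Cxcl12 and others) numbered 3116 at 6 months and 1959 at 24 months, and their median cell held UMIs of 8 of the 8 markers. Osteoblast-like cells (Bglap, Ibsp, Sp7 and others) numbered 648 and 395, with 5 of 9 markers in the median cell. Fibroblast-like cells numbered 2768 and 1274, tendon-like cells 946 and 388, and chondrocyte-like cells 114 and 28. Cells near the limit of the rule, whose leading score was under 1.5 times the next, were few in the stromal-like group (82 and 74) and more frequent in the osteoblast-like group (151 and 76). The rule left 12.7% of cells ungrouped at 6 months and 10.2% at 24 months. The osteoclast-like group held 0 cells in either mouse and the macrophage-like group 1 cell in each.

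Promoter sequences are shown for Tnfsf11 and Csf1, the ligands of the 2 pathways whose mRNA was read most clearly in the stromal-like cells, although the data measured mRNA and no promoter. Both are the 250 bases before the start of the gene from RefSeq (build GRCm38.p6, minus strand, written 5′ to 3′). The table used held a promoter for 3 of the 6 members, the third being Tnfrsf11a. Capitals in the Tnfsf11 promoter (chr14:78308044-78308293) mark TATAA, which was found on both strands in overlapping letters whose first base lay at −31 from the start. Capitals in the Csf1 promoter (chr3:107760470-107760719) mark CCCNNGGG, found 1 time with its first base at −147.
Tnfsf11: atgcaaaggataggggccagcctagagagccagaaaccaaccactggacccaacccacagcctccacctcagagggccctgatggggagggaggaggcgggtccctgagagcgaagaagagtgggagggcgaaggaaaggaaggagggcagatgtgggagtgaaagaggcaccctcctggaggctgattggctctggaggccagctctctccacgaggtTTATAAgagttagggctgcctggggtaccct
Csf1: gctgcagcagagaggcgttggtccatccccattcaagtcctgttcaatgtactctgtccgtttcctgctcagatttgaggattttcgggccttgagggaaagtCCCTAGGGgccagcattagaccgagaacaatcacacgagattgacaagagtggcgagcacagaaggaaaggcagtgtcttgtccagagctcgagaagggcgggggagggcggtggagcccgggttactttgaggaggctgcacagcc
On either strand, TATAA occurred in 22.8% of 32851 RefSeq promoters of that length and CCCNNGGG in 11.8%. CCCNNGGG is the core read by EBF factors and is its own reverse complement, while TGTGGT, the core read by RUNX factors, occurred in 14.1% and had 0 matches in the promoters of Tnfsf11, Csf1 and Tnfrsf11a. A match is a run of letters and not a binding site, and its absence speaks only of this window. The Tnfsf11 promoter held 60.4% G and C bases and the Csf1 promoter 56.4%.

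Tnfsf11 (ENSMUSG00000022015, chr14:78277446-78308043), the gene of RANKL, was found above all in stromal-like and osteoblast-like cells. In the stromal-like cells its level was 27.7 CPM at 6 months (522 UMIs, interval 25.4 to 30.2) and 58.5 CPM at 24 months (959 UMIs, 54.8 to 62.3). In the osteoblast-like cells it was 33.96 CPM (175 UMIs, 29.1 to 39.4) and 24.8 CPM (157 UMIs, 21.1 to 29.0). Osteoblast-like cells thus stood first at 6 months and stromal-like cells at 24 months, and the intervals of both groups overlapped at 6 months only. Tendon-like cells followed at 14.3 and 18.2 CPM and chondrocyte-like cells at 10.9 and 19.3 CPM, the latter on 12 and 8 UMIs, and these neighbours did not differ beyond counting error. Fibroblast-like cells held 2.27 and 2.88 CPM. Stromal-like cells supplied 51.0% of all Tnfsf11 UMIs of the young library and 69.6% of those of the old library.

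A Tnfsf11 UMI was found in 12.8% of the young and 28.4% of the old stromal-like cells, at median depths of 5253 and 8310 UMIs. With each cell thinned to 2000 UMIs the shares were 5.40% and 9.80%. Osteoblast-like cells held 13.4% and 13.7% with a Tnfsf11 UMI, at median depths of 6351 and 11688 UMIs, and 5.02% and 4.45% after thinning. In erythroid-like cells, which should lack this gene and served as the background of free RNA, 0.398% of the 502 young cells had a UMI and 0 of the 440 old cells, which allows a share of up to 0.682%, at median depths of 18583 and 18489 UMIs. The shares in stromal-like and osteoblast-like cells therefore lay well above the background of much deeper cells.

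Tnfrsf11b (ENSMUSG00000063727, chr15:54250619-54278484), the gene of OPG, had another order of groups. Chondrocyte-like cells stood first, at 419 CPM at 6 months (459 UMIs, 381 to 459) and 1189 CPM at 24 months (493 UMIs, 1087 to 1299). Tendon-like cells followed at 146 CPM (1055 UMIs, 137 to 155) and 174 CPM (917 UMIs, 163 to 186). Osteoblast-like cells held 86.4 CPM (78.5 to 94.8) and 51.7 CPM (46.2 to 57.6). These 3 groups kept this order in both mice, with no overlap of neighbouring intervals. Fibroblast-like cells held 16.7 and 18.7 CPM and stromal-like cells 5.68 and 8.05 CPM, so that the group with the most Tnfsf11 at 24 months had the lowest Tnfrsf11b of the mesenchymal groups.

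The Tnfrsf11b UMIs were uneven over cells. In the tendon-like group the 15 young and 9 old cells with the most UMIs held as many as all others together or more, and 1 young cell alone held 94 and 1 old cell 115. In the chondrocyte-like group the same was true of 11 young and 4 old cells. A UMI was found in 68.4% of the young and 82.1% of the old chondrocyte-like cells, at median depths of 8171 and 13340 UMIs. Tendon-like cells, with 6756 and 12268 UMIs in the median cell, reached 20.9% and 25.8%, while the erythroid-like background was 1.59% and 0.227%. Of the 132 Tnfrsf11b UMIs of the old stromal-like cells, 34.1% lay in 1 cell with 45 UMIs, so the level of that group rests partly on that cell. The ungrouped cells held a further 32.5% and 27.8% of all Tnfrsf11b UMIs, at 133 and 141 CPM.

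Csf1 (ENSMUSG00000014599, chr3:107741048-107760469), the gene of M-CSF, was the most abundant member in both libraries, with 14272 and 12552 UMIs. It was highest in stromal-like cells, at 428 CPM at 6 months (419 to 437) and 426 CPM at 24 months (416 to 436), and these cells supplied 56.5% and 55.6% of its UMIs. In the mesenchymal groups fibroblast-like cells followed at 171 and 200 CPM, then osteoblast-like cells at 134 and 107 CPM and tendon-like cells at 53.3 and 66.4 CPM. Chondrocyte-like cells, the highest for Tnfrsf11b, were the lowest of the 5 groups for Csf1, at 22.8 and 9.65 CPM. Neutrophil-like cells, which passed the sort in small number, held 137 CPM (81 UMIs, 109 to 171) and 285 CPM (483 UMIs, 260 to 312). A Csf1 UMI was found in 78.5% and 82.8% of the stromal-like cells, against 5.38% and 4.77% of the deeper erythroid-like cells.

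Il34 (ENSMUSG00000031750, chr8:110741829-110805949), the gene of the other ligand of the M-CSF receptor, was read mainly in stromal-like cells, which held 90.01% of its UMIs at 6 months and 86.4% in the old library. Its level there was 291 CPM at 6 months (284 to 299) and 186 CPM at 24 months (180 to 193). Pericyte-like cells came second with 52.5 CPM (16 UMIs, 30.0 to 85.3) and 63.9 CPM (36 UMIs, 44.8 to 88.5). Tendon-like cells held 14.5 and 19.0 CPM, fibroblast-like cells 10.7 and 11.7 CPM, and osteoblast-like cells 3.10 and 4.11 CPM. An Il34 UMI was found in 68.0% and 61.3% of the stromal-like cells and in 2.99% and 0.227% of the erythroid-like cells.

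**Figure D1:**
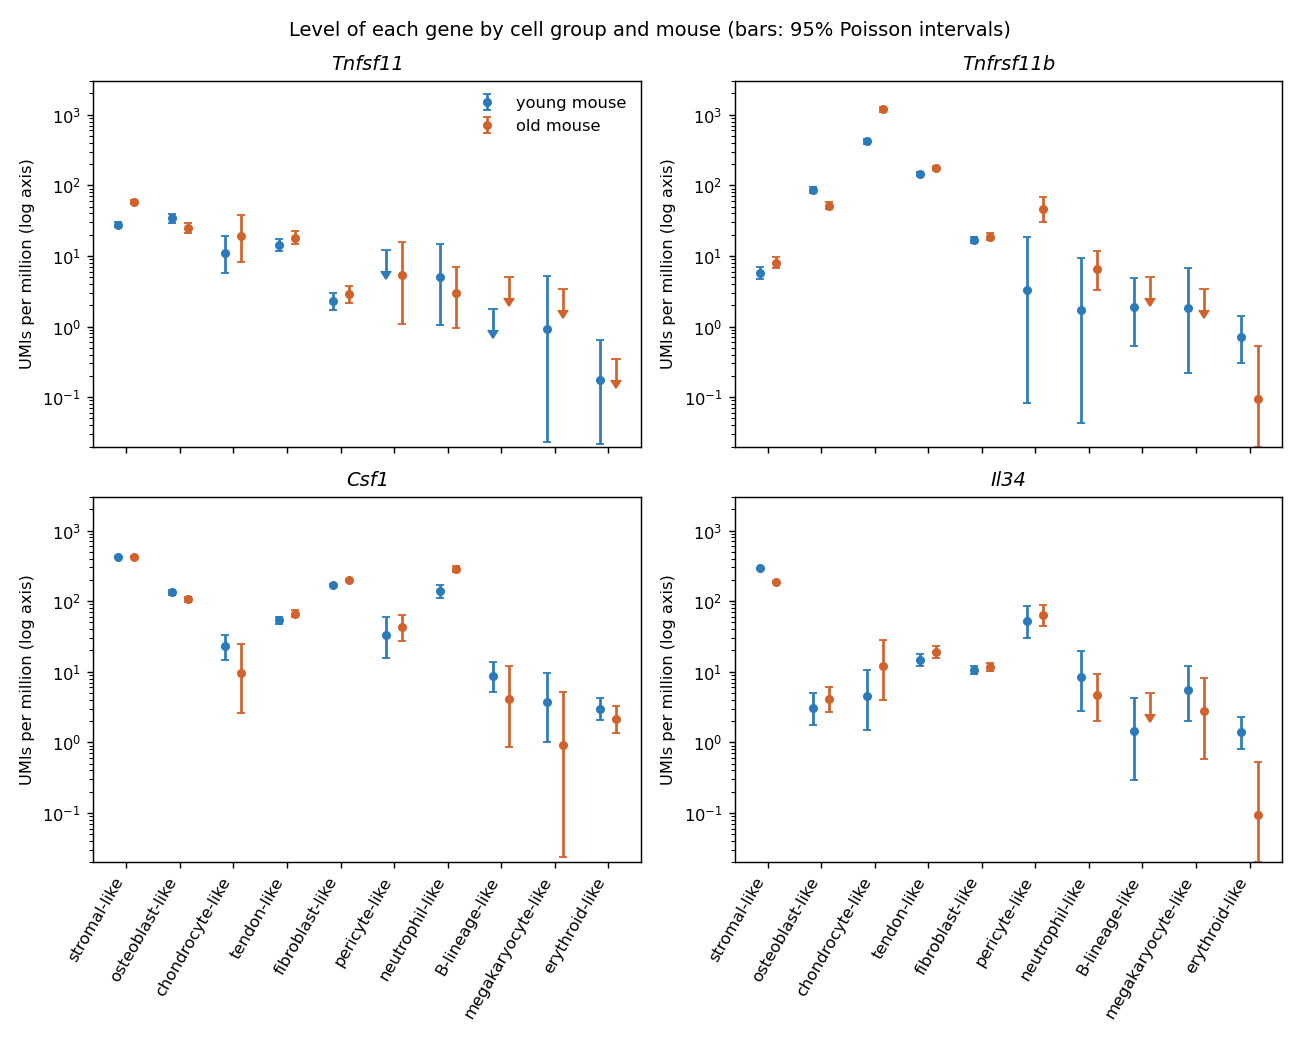
Level of Tnfsf11, Tnfrsf11b, Csf1 and Il34 in CPM (log axis) for each cell group, with 1 point per mouse and bars for 95% Poisson intervals of the count, and with arrows ending below the upper limit where a group had 0 UMIs. Tnfrsf11b peaked in chondrocyte-like cells (419 and 1189), whereas Csf1 (428 and 426) and Il34 (291 and 186) peaked in stromal-like cells.

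The receptors had few UMIs. Csf1r (ENSMUSG00000024621), the receptor of M-CSF and interleukin-34, had 48 UMIs at 6 months and 76 in the old library. Neutrophil-like cells held 14 of them at 6 months (23.7 CPM, 13.0 to 39.8) and 59 at 24 months (34.8 CPM, 26.5 to 44.9), which was 29.2% and 77.6% of all. The 10 markers of macrophages summed to 234 and 339 CPM in these neutrophil-like cells and to 5.95 and 5.73 CPM in the stromal-like cells, with 7 and 6 of the 10 markers at 0 UMIs in the neutrophil-like cells. The part of such cells in the Csf1r count was not tested. Stromal-like cells held 15 and 3 Csf1r UMIs. Tnfrsf11a (ENSMUSG00000026321, chr1:105780673-105849444), the gene of RANK, had 6 and 10 UMIs. Of these, 2 of the young and 9 of the old UMIs lay in pericyte-like cells, at 6.57 CPM (0.795 to 23.7) and 15.97 CPM (7.30 to 30.3), and 13.2% of the 68 old pericyte-like cells had one. Osteoblast-like cells had 0 Tnfrsf11a UMIs in both mice, which allows up to 0.582 and 0.474 CPM.

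RANKL and OPG were then set against each other within each group, as the share of Tnfsf11 among the UMIs of both genes, since the decoy acts on the ligand. The share was 83.0% in young (79.8 to 85.8) and 87.9% in old stromal-like cells (85.8 to 89.8). It was 28.2% (24.7 to 31.9) and 32.4% (28.3 to 36.8) in osteoblast-like cells. It was 12.0% and 13.3% in fibroblast-like, 8.89% and 9.48% in tendon-like and 2.55% and 1.60% in chondrocyte-like cells. The groups kept this order in both mice, with overlapping intervals between fibroblast-like and tendon-like cells. Stromal-like cells were the only one of the 5 groups with more Tnfsf11 than Tnfrsf11b UMIs. Their share rests on 107 and 132 Tnfrsf11b UMIs, of which 45 of the old ones lay in 1 cell. A Tnfrsf11b UMI was found in 2.05% and 3.16% of these cells, against 1.59% and 0.227% of the deeper erythroid-like cells. Over all kept cells the share was 21.7% and 30.8%.

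Among the ligands of the M-CSF receptor, the share of Il34 in the UMIs of Il34 and Csf1 was 40.5% in young and 30.4% in old stromal-like cells. It was 21.4% and 22.2% in tendon-like, 5.88% and 5.51% in fibroblast-like and 2.27% and 3.71% in osteoblast-like cells. Csf1 therefore exceeded Il34 in every one of these 4 groups. Pericyte-like cells went the other way, with 61.5% and 60% on 26 and 60 UMIs of both genes.

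**Figure D2:**
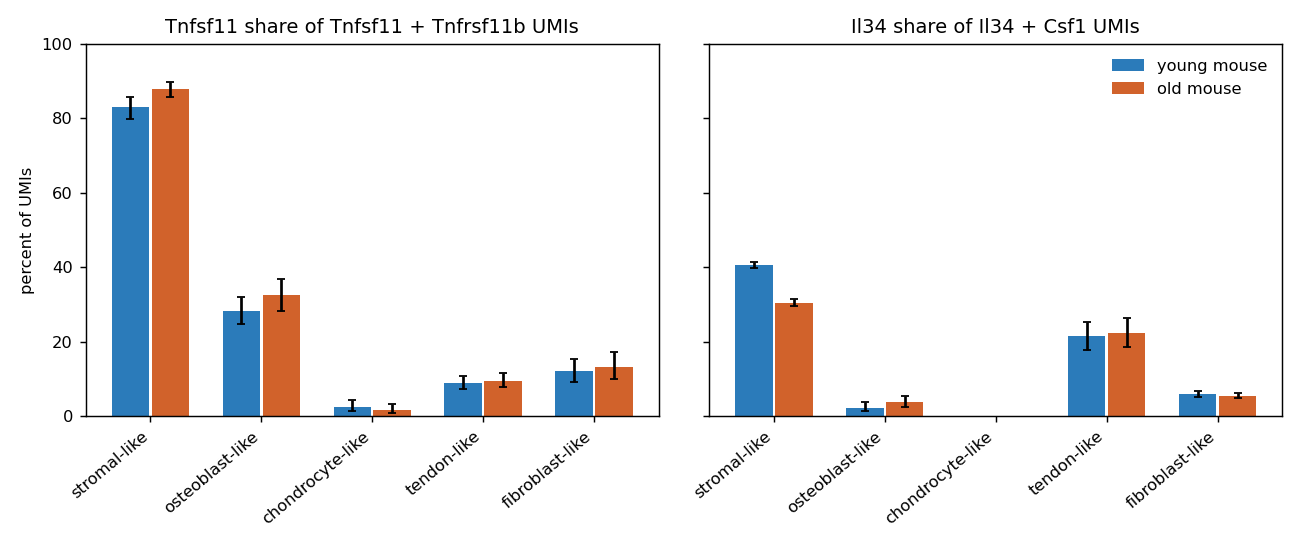
Share of Tnfsf11 in the UMIs of Tnfsf11 and Tnfrsf11b (left) and of Il34 in those of Il34 and Csf1 (right), in percent, per cell group and mouse, with 95% exact binomial intervals as error bars; no bar is drawn on the right for chondrocyte-like cells, which had at most 25 UMIs of either gene. Stromal-like cells stood at 83.0% and 87.9% on the left and at 40.5% and 30.4% on the right.

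Whether cells of 1 group held several members at once was read after thinning each cell to 2000 UMIs, so that deep cells did not hold both genes for that reason alone. Among young stromal-like cells Tnfsf11 was found in 5.21% of the cells with a Csf1 UMI and in 5.62% of the others, and at 24 months in 10.7% and 8.74%. Csf1 was found in 55.1% of the young cells with an Il34 UMI and 53.5% of those without, and in 55.2% and 53.7% of the old cells. These shares lay close together, and no split of the stromal-like cells by these ligands was seen at this depth. In the osteoblast-like group Tnfsf11 and Tnfrsf11b were seldom in the same cell. At full depth 4 young and 8 old cells had both, which was 3.74% and 9.41% of the cells with Tnfrsf11b, against 15.3% and 14.8% with Tnfsf11 among the cells without Tnfrsf11b. These are shares of cells of 1 library each and were given no test.

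Differences between groups were tested on UMI sums per library and group with edgeR's quasi-likelihood F test. The library, called the mouse here, was the block and adjustment was over all genes, so that n = 2 libraries. The first comparison set osteoblast-like against stromal-like cells, the 2 groups with the most Tnfsf11. Of the 4 members tested, 3 differed: Tnfrsf11b was higher in osteoblast-like cells by 3.66 on the log2 scale (SE 0.44, edgeR adjusted p 0.000367), while Csf1 was lower, at −1.55 (SE 0.19, adjusted p 0.000389), and Il34 at −5.73 (SE 0.33, adjusted p 8.29e-06). Of all 14052 genes tested, 39.0% passed the same test. Tnfsf11 did not pass, with a log2 difference of −0.20 (SE 0.26, edgeR adjusted p 0.597). Taken 1 mouse at a time that difference was 0.50 at 6 months and −0.86 at 24 months, so the combined value averages unlike values. Tnfrsf11a and Csf1r did not pass the filter on low counts in this or the next comparisons among groups.

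Stromal-like cells exceeded fibroblast-like cells, the other large mesenchymal group, in Tnfsf11 by 3.83 (SE 0.30, edgeR adjusted p 2.61e-05), in Csf1 by 1.03 (SE 0.18, adjusted p 0.0023) and in Il34 by 4.24 (SE 0.27, adjusted p 8.64e-06) on the log2 scale. Tnfrsf11b fell by 1.56 (SE 0.42, edgeR adjusted p 0.0166). All 4 members tested were thus called, where 43.9% of all genes were. Chondrocyte-like cells exceeded osteoblast-like cells in Tnfrsf11b by 3.45 (SE 0.43, edgeR adjusted p 0.00117), with 2.35 at 6 months and 4.50 at 24 months. Csf1 fell by 2.66 (SE 0.28, edgeR adjusted p 0.000544). Tnfsf11 at −1.05 (SE 0.50, adjusted p 0.194) and Il34 at 0.87 (SE 0.77, adjusted p 0.504) did not pass edgeR's test, and 2 of 4 members stand beside 16.5% of all genes.

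The split of all genes by direction depended on the scaling. Osteoblast-like cells were higher for 2650 and lower for 2828 genes than stromal-like cells, and with total UMIs in place of TMM composition factors for 1667 and 4744, where the median of all genes moved from −0.05 to −0.34. Stromal-like cells were higher for 3131 and lower for 3037 genes than fibroblast-like cells, and with total UMIs for 4162 and 2286, where the median moved from 0.03 to 0.20. The directions and calls of the members in these comparisons were the same under both scalings.

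Genes around the axis were read from 5 lists. The first holds receptors and sheddases that bind or cleave the members. In osteoblast-like against stromal-like cells 3 of its 6 tested genes were higher and 2 lower, with a median log2 difference of 0.63 against −0.05 over all genes. Of all genes 18.9% were higher and 20.1% lower. Ptprz1, a receptor phosphatase that binds interleukin-34, was higher by 5.79, and Mmp14 (1.69) and Adam10 (0.92), proteases that can shed membrane-bound RANKL, were higher as well. Sdc1, a syndecan that also binds interleukin-34, fell by 1.66. In CPM, Ptprz1 was at 411 and 502 in osteoblast-like cells against 14.4 and 7.25 in stromal-like cells, the young mouse first.

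The second list holds receptors through which hormones and cytokines act on RANKL and OPG expression. In osteoblast-like cells 3 of 13 were higher and 8 lower than in stromal-like cells (median −0.86). Vdr, the vitamin D receptor, rose by 2.67 and Pth1r, the receptor of parathyroid hormone, by 2.62, while Il1r1, an interleukin-1 receptor, fell by 2.44 and Ptger4, a prostaglandin E2 receptor, by 2.30. Against fibroblast-like cells, stromal-like cells were higher for 6 and lower for 4 of the 13 (median 0.47 against 0.03 over all genes), beside 22.3% and 21.6% of all genes, with Vdr (3.32) and Lifr (3.17), a receptor of LIF, higher, and Il6ra (−2.47) and Il11ra1 (−2.35) lower. In the 2 groups with the most Tnfsf11, Pth1r stood at 723 and 590 CPM in osteoblast-like against 138 and 123 CPM in stromal-like cells, and Il1r1 at 44.6 and 24.02 against 249 and 197 CPM. In chondrocyte-like against osteoblast-like cells 2 were higher and 2 lower (median 0.03 against −0.07 over all genes, beside 8.63% and 7.90% of all genes), among them Il6ra (3.68) and Lifr (−3.36).

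The lists of RANK signalling with osteoclast transcription factors and of osteoclast function concern cells of which 0 passed the osteoclast-like rule. Of the defining osteoclast markers, Calcr, the calcitonin receptor, had 4 and 1 UMIs in the kept cells and Dcstamp, a fusion protein, 2 and 5, while Acp5, a phosphatase of osteoclasts also read here in other cells, had 1759 and 2747. In osteoblast-like against stromal-like cells 1 of 19 tested signalling genes was higher (Nfatc1, a transcription factor of osteoclast formation, by 1.67) and 10 were lower (median −0.92). Tyrobp, an adaptor of myeloid cells, was lower by −4.45 and stood at 30.6 and 18.5 CPM in stromal-like cells, in which the macrophage markers summed to 5.95 and 5.73 CPM against 2.91 and 1.42 CPM in osteoblast-like cells. Their part in this difference was not tested. Of the function genes 5 of 10 were higher and 3 lower (median 0.80), with Trem2, a receptor of myeloid cells, at 4.15 and Atp6v0d2, a proton pump subunit, at 3.81. Both rest on very low levels. Trem2 was at 0.776 and 2.05 CPM in osteoblast-like against 0.106 and 0.061 CPM in stromal-like cells. Atp6v0d2 was at 1.36 and 0.316 CPM against 0.106 and 0 CPM. In stromal-like against fibroblast-like cells 8 signalling genes were higher and 4 lower (median 0.24), and 3 function genes were higher and 4 lower (median −0.76), led by Atp6v0d2 (−5.99). In chondrocyte-like against osteoblast-like cells 6 signalling genes were higher and 1 lower (median 0.27), and 2 function genes, the integrin Itgb3 and the protease Ctsk, were lower (median −1.73) and the other 8 were not called.

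The last list holds other secreted or surface factors that act on osteoclasts. In osteoblast-like against stromal-like cells 5 of 13 were higher and 5 lower (median −0.56). Wnt16, a WNT ligand that restrains osteoclast formation, was higher by 5.57 (129 and 36.4 CPM against 2.34 and 1.65), while the chemokines Ccl9 (−5.34) and Ccl2 (−5.25) and the WNT inhibitor Sfrp1 (−3.96) were lower. Stromal-like cells had 2 genes higher and 6 lower than fibroblast-like cells (median −1.06), with Ccl9 at 4.44 and Il6, a cytokine that favours osteoclast formation, at −3.36. Chondrocyte-like cells had 1 higher and 5 lower than osteoblast-like cells (median −1.07). Of the receptors and sheddases 3 were lower there and 3 not called (median −1.55), led by Ptprz1 (−5.47), and in stromal-like against fibroblast-like cells 1 was higher, Sdc1 at 2.05, and 2 were lower (median 0.14).

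Between the mice, the 4 members with at least 100 UMIs in each library gave 20 ratios over the 5 mesenchymal groups. Of their intervals 10 did not include 1, 6 of them higher and 4 lower at 24 months. The share of all genes with such an interval was not counted, so this number has no background and is no trait of the members. The shares given below are of genes past 1.5-fold, another rule. In stromal-like cells Tnfsf11 was higher at 24 months by a ratio of 2.11 (1.89 to 2.35). Among 11625 genes with at least 100 UMIs there, 3.98% were higher by at least 1.5-fold and 2.61% lower, and the log2 ratio of Tnfsf11, 1.08, lay above the 95th percentile of these genes, 0.51. Il34 was lower in the same cells, at a ratio of 0.639 (0.611 to 0.668), and its log2 ratio of −0.65 lay below the 5th percentile, −0.40. Csf1 stood at 0.995 (0.963 to 1.03) and Tnfrsf11b at 1.42 (1.09 to 1.84). The latter is among the 6 higher but rests on 1 old cell with 45 of the 132 UMIs. Without the cell with the most Tnfrsf11b UMIs in each mouse it was 1.03 (0.762 to 1.39), and after thinning 1.62 (0.858 to 3.08), both intervals including 1. With cells thinned to 2000 UMIs the ratio was 1.94 (1.57 to 2.39) for Tnfsf11 and 0.614 (0.560 to 0.672) for Il34. Some markers of the stromal-like group also differed between the mice. Adipoq was at 1259 CPM in the young and 2054 CPM in the old cells, Hp at 6054 and 3758 CPM and Lepr at 1483 and 1574 CPM. Whether both mice gave the same kinds of stromal-like cells was not tested.

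In osteoblast-like cells the ligand, the decoy receptor and M-CSF were all lower at 24 months. The ratio was 0.731 for Tnfsf11 (0.585 to 0.912), 0.599 for Tnfrsf11b (0.517 to 0.692) and 0.796 for Csf1 (0.714 to 0.886). Here 9.55% of 8470 genes were lower by at least 1.5-fold and 3.29% higher, and the log2 ratios of the 3 members, −0.45, −0.74 and −0.33, lay within the 5th to 95th percentiles of all genes, −0.77 to 0.47. After thinning, on fewer UMIs, the ratios were 0.873 (0.480 to 1.54), 0.763 (0.552 to 1.05) and 0.943 (0.743 to 1.19), and each interval included 1. These 3 members were thus lower within the range of the other genes of the group. The markers of the group differed as well, with Bglap at 8311 CPM in the young and 17721 CPM in the old cells. Phex was at 68.5 and 461 CPM, and of the markers only Dmp1, at 314 and 243 CPM, was lower in the old cells. Whether both mice gave the same kinds of osteoblast-like cells was not tested.

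Tnfrsf11b was higher in the old chondrocyte-like cells by a ratio of 2.84 (2.50 to 3.23), where 11.4% of 2004 genes were higher and 14.7% lower by at least 1.5-fold. Here 28 old cells were compared with 114 young cells, and 10 and 18 of them lay near the limit of the rule. The median old cell held 5 of 9 markers and the median young cell 7. The marker Cnmd was at 1478 CPM in the young and 388 CPM in the old cells. Col9a2 was at 1517 and 654 CPM and Col9a3 at 1572 and 685 CPM, and Col9a1, Matn3, Hapln1 and Col11a2 were lower as well. Of the markers only Col2a1, at 7213 and 8721 CPM, and Acan, at 1826 and 2065 CPM, were higher in the old cells. Whether both mice gave the same kinds of cells to this group was not tested. In tendon-like cells Tnfrsf11b stood at 1.19 (1.09 to 1.30). Without the highest cell of each mouse these ratios were 2.55 and 1.14, and that of fibroblast-like cells went from 1.13 (0.969 to 1.31) to 1.22 (1.04 to 1.42). Csf1 was at 1.17 in fibroblast-like (1.12 to 1.22) and 1.25 in tendon-like cells (1.07 to 1.44), the latter at 1.18 (0.828 to 1.67) after thinning. None of the 4 members passed 1.5-fold in these 2 groups, where 3.75% and 2.71% of the genes were higher and 2.23% and 2.78% lower by that much. Csf1 was also higher in the old neutrophil-like cells, at 2.08 (1.64 to 2.66), and at 3.32 after thinning.

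Over all kept cells Tnfsf11 was at 12.6 CPM at 6 months and 20.6 CPM at 24 months, a ratio of 1.63 (1.51 to 1.77), beside 5.71% of 14589 genes higher and 3.44% lower by at least 1.5-fold. Il34 was at 75.2 and 53.0 CPM (0.705, 0.676 to 0.735), Csf1 at 176 and 188 CPM (1.07) and Tnfrsf11b at 45.7 and 46.4 CPM (1.01). Csf1r was at 0.592 and 1.14 CPM (1.92, 1.32 to 2.82), and the old library had more neutrophil-like cells, 357 against 174, whose part in this ratio was not tested. These values mix the levels within groups with the make-up of each library.

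**Figure D3:**
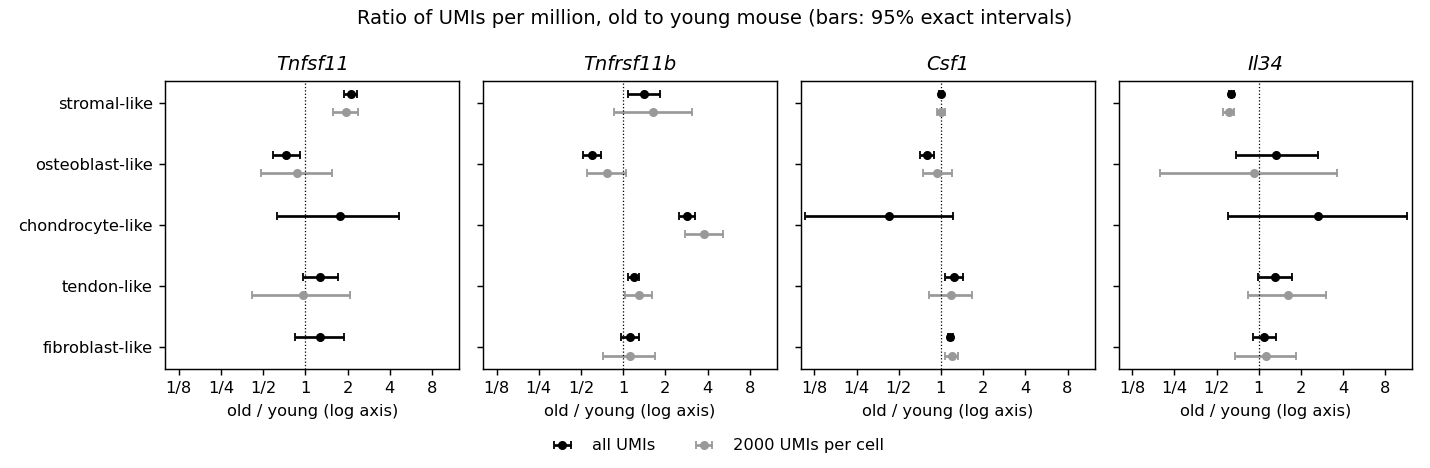
Ratio of CPM in the old to the young mouse (log axis) for 4 genes in 5 mesenchymal groups, with black points for all UMIs, grey points for cells thinned to 2000 UMIs and bars for 95% exact intervals of counting error; ratios with fewer than 10 UMIs over both mice are not drawn. In stromal-like cells Tnfsf11 stood at 2.11 and Il34 at 0.639, and both kept their side of 1 after thinning.

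CD24 is the surface protein that the antibody measured, and the CD24+ cells were compared with CD24- cells within the same 2 mice. A threshold on the antibody count in each library called 1573 young cells (15.6%) and 760 old cells (13.6%) CD24+. Over all kept cells Csf1 fell by 1.81 (SE 0.20, edgeR adjusted p 6e-11), Il34 by 1.95 (SE 0.21, adjusted p 8.33e-12) and Tnfsf11 by 1.16 (SE 0.25, adjusted p 9.19e-05) on the log2 scale in CD24+ cells. With 1 mouse alone Tnfsf11 stood at −0.54 (young) and −1.86 (old). Tnfrsf11b was higher by 0.61 (SE 0.20, edgeR adjusted p 0.00687), with 65.9 against 39.3 CPM at 6 months but 44.8 against 46.8 CPM at 24 months. That call was lost with total UMIs in place of TMM factors (0.35, edgeR adjusted p 0.241) and with the antibody threshold at the 90th percentile (0.34, edgeR adjusted p 0.287). Csf1r did not pass (−0.80, SE 0.55, edgeR adjusted p 0.208). In this comparison 57.5% of 16230 genes were called, 28.5% higher and 29.0% lower, or 4624 and 4708 genes. With total UMIs these numbers were 3112 and 5118, and the median moved from −0.05 to −0.32. The CD24+ cells of this comparison include the blood cells that carry CD24, and a lower level over all cells cannot be told apart from fewer cells that use the gene.

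Cells outside the 5 mesenchymal groups were then left out, and their 587 young and 192 old CD24+ cells were compared with 7005 and 3852 CD24- cells. This did not remove all RNA of blood cells. Car2, a gene abundant in red cell precursors, was at 141 against 15.6 CPM and 251 against 13.5 CPM, and Btk at 5.47 against 0.462 and 1.97 against 0.374 CPM. Tyrobp went the other way, at 10.4 against 11.3 and 6.58 against 10.2 CPM. The part of free RNA or doublets was not tested. Tnfrsf11b was at 140 CPM in CD24+ against 30.7 CPM in CD24- cells of the young mouse, and at 170 against 39.2 CPM at 24 months. It was higher by 2.22 on the log2 scale (SE 0.08, edgeR adjusted p 2.88e-07), at 2.23 and 2.20 in the single mice. The 2 sides differed in make-up, since chondrocyte-like cells were 44 of the 587 young CD24+ cells against 70 of 7005 CD24- cells and 11 of 192 against 17 of 3852 old cells. Stromal-like cells were 159 against 2957 and 53 against 1906. In this pooled comparison a difference in make-up and one in level within a group cannot be told apart, for any of the 4 members. Csf1 was at 162 against 245 CPM and 144 against 258 CPM, lower by −0.65 (SE 0.08, edgeR adjusted p 0.000348). Il34 was at 65.8 against 109 CPM and 41.1 against 76.3 CPM, lower by −0.74 (SE 0.09, edgeR adjusted p 3e-04), and without the mouse block it did not pass (edgeR adjusted p 0.21). Tnfsf11 was at 20.1 against 14.7 CPM at 6 months and 18.4 against 28.4 CPM at 24 months, and at 0.06 (SE 0.20, edgeR adjusted p 0.898) it did not pass. Thus 3 of 4 members were called where 17.5% of 15238 genes were, 9.73% higher and 7.76% lower, or 1482 and 1182 genes and, with total UMIs, 1286 and 1544.

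Within single groups, read without a test since some held few CD24+ cells, Tnfrsf11b did not move one way. In stromal-like cells it was at 15.1 CPM in CD24+ against 4.70 CPM in CD24- cells of the young mouse, a ratio of 3.21 (2.00 to 5.03), with 9.58 CPM in CD24+ cells without their highest cell. In the old mouse it was at 65.3 against 5.42 CPM there, where 1 cell held 45 of the 47 UMIs of the 53 CD24+ cells, and without that cell the CD24+ level was 2.88 CPM, below that of CD24- cells. Chondrocyte-like cells stood at 514 against 327 CPM and 1576 against 965 CPM, the old CD24+ value being 1077 CPM without its highest cell. Fibroblast-like cells stood at 81.1 against 11.7 CPM and 24.5 against 18.5 CPM, the young CD24+ value being 48.4 CPM without a cell that held 58 UMIs, and tendon-like cells at 335 against 108 CPM and 293 against 159 CPM. In osteoblast-like cells the order was opposite, at 62.9 against 95.8 CPM (0.657, 0.517 to 0.828) at 6 months and 40.8 against 53.5 CPM (0.762, 0.526 to 1.08) at 24 months, the latter interval including 1. The old CD24+ value was 20.1 CPM without its highest cell. The rise over the pooled groups therefore did not hold in osteoblast-like cells. Tnfsf11 did not move one way either. At 24 months it was lower in CD24+ cells of both main groups, at 27.8 against 59.9 CPM in stromal-like (0.464, 0.282 to 0.721) and 11.02 against 27.1 CPM in osteoblast-like cells (0.406, 0.191 to 0.769). In old tendon-like cells it was higher, at 32.9 against 16.3 CPM (2.02, 1.17 to 3.33), and old CD24+ fibroblast-like cells had 0 UMIs against 2.99 CPM. In the 2 main groups of the young mouse it stood at 26.8 against 27.8 CPM and 31.8 against 34.8 CPM, with both intervals of the ratio including 1. Young fibroblast-like cells held 8.63 against 1.78 CPM (4.86, 2.49 to 8.98), on 15 and 40 UMIs. Csf1 was lower in the CD24+ stromal-like cells of both mice, at ratios of 0.809 (0.745 to 0.878) and 0.755 (0.660 to 0.861), and so was Il34, at 0.757 (0.682 to 0.837) and 0.768 (0.625 to 0.934).

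**Figure D4:**
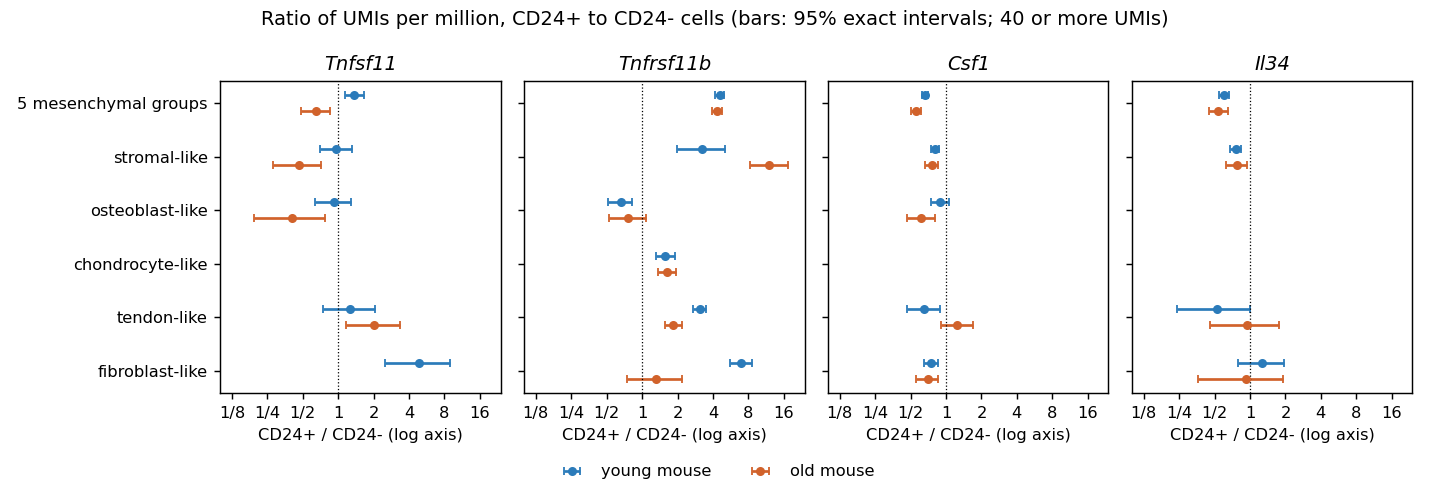
Ratio of CPM in CD24+ to CD24- cells (log axis) for 4 genes, over the 5 mesenchymal groups together and within each group, with 1 point per mouse and bars for 95% exact intervals of counting error; ratios on few UMIs are not drawn. Tnfrsf11b lay above 1 over the pooled groups (140 against 30.7 and 170 against 39.2 CPM) and below 1 in the osteoblast-like cells (0.657 and 0.762).

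In the lists around the axis, mesenchymal CD24+ cells had 2 receptors or sheddases higher and 1 lower of 7 (median −0.27 against −0.01 over all genes), with Ptprz1 at 2.09 and Mmp14 at 0.76. Of 13 hormone and cytokine receptors 1 was higher, Pth1r at 1.09, and 7 were lower (median −0.45), among them Ptger4 (−0.83) and Il1r1 (−0.68). Of 20 signalling genes 2 were higher and 3 lower (median −0.16), and of 10 osteoclast function genes 1 was higher, Car2, a carbonic anhydrase also abundant in red cell precursors, at 3.74, and 1 lower (median −0.02). Of 13 other factors 5 were higher and 5 lower (median −0.19), with the cytokine Il11 at 1.92 and Wnt16 at 1.70. Over all kept cells the numbers higher and lower were 3 and 3 of 7 for the first list and, after the hormone and cytokine receptors, of which 12 of 13 were lower and the other not called, 2 and 11 of 20, 2 and 4 of 10, and 1 and 9 of 14 in the same order of lists.

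The genes whose levels ran most like each member were taken over 20 points, which are cell groups of 2 libraries and so share animal and library, from 9068 genes with a mean of at least 10 CPM. For Tnfsf11 these were Runx2 (Pearson r 0.935 of log2 CPM), Lmo7 (0.927) and Sdk2 (0.920). For Tnfrsf11b they were Sox9 (0.945), D630045J12Rik (0.935) and Kcnma1 (0.926), for Csf1 Rbms1 (0.960), Ncoa1 (0.948) and Tcn2 (0.947), and for Il34 Sult1a1 (0.937), Mark1 (0.905) and Ebf3 (0.899), the last of which was a marker of the stromal-like group. Among the members r was 0.708 between Tnfsf11 and Tnfrsf11b, 0.681 between Tnfsf11 and Csf1, 0.640 between Csf1 and Il34 and 0.560 between Tnfsf11 and Il34. It was 0.334 between Tnfrsf11b and Csf1 and 0.271 between Tnfrsf11b and Il34. The 20 points include the pericyte-like, erythroid-like, neutrophil-like, B-lineage-like and megakaryocyte-like groups beside the mesenchymal ones. An r over all of them does not give the order within the mesenchymal groups. There, old stromal-like cells were first for Tnfsf11 and last for Tnfrsf11b. These values describe levels over all these cell groups, and no test was made of them.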

How the data were processed

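A young and an old single-cell library were made with 10x Genomics 3′ chemistry, and 1 CD24 antibody was read in the same cells. The deposited values are raw counts, whole numbers of UMIs per feature and cell, in 1 matrix per mouse. The authors aligned and counted reads with Cell Ranger against mm10, per the submitters' processing notes, and per the file headers the release was 6.1.1, which is later than the one in the published methods. R 4.0.3 and Seurat 4.0 are also named in those notes. The authors had applied no normalization to these counts, and free RNA in a droplet is counted with its cell. Strand and gene overlap were handled by Cell Ranger and not checked.

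Barcodes with under 200 genes (588 young, 298 old) or over 20% mitochondrial UMIs (1306, 1117) were left out. Scrublet (scanpy 1.11.5, seed 1) marked 2.67% of young and 1.02% of old cells as doublets, which were kept and in an alternative removed. A cell joined 1 of 17 marker groups when at least 3 markers had a UMI and its score (mean of log(1 + UMIs per 10000), each marker scaled by its 99th percentile) was at least 1.2 times the next. This scoring rule was set after seeing the data. Members, gene lists and tests were chosen with earlier results of these data known.

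CPM have exact Poisson intervals, ratios and shares exact binomial intervals, all at 95% and for counting error only. A count of 0 allows up to 3 counts. At 2000 UMIs per cell, 770 young and 496 old shallower cells were left out. UMI sums were tested with edgeR 4.0.16 (R 4.3.3; TMM, filterByExpr, two-sided quasi-likelihood F test, Benjamini-Hochberg adjustment at 0.05) with the mouse as block, since both sums of a pair come from the same library. The fit of groups had 10 sums and 4 residual degrees of freedom, each CD24 fit 4 sums and 1, so that a gene's spread was largely borrowed from other genes. The script was tested on simulated counts. CD24+ cells exceeded the Otsu threshold of log(1 + antibody count), above 312 UMIs at 6 months and 396 at 24 months. Named genes were all members, of each list at most 4 called genes with the largest change (those shown as CPM or in words were taken from them), and for each member the 3 most alike in Pearson r of log2(CPM + 1). DESeq2 1.42.0, another mitochondrial limit (10%), a stricter marker rule (4 markers, 1.5 times), a 90th percentile antibody threshold, no block and single mice were alternatives. Python 3.11.15, NumPy 2.4.6, SciPy 1.17.1, pandas 2.3.3 and matplotlib 3.10.9 were used. RefSeq tables were of GRCm38.p6, the assembly of mm10.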

Additional observations from a re-analysis of the deposited data

Results flagged for a closer look

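Several members differed between the mice in opposite directions in different cell groups, by intervals that cover counting error only, and the difference between groups was not tested. Tnfsf11 had an old to young ratio of 2.11 in stromal-like and 0.731 in osteoblast-like cells. Tnfrsf11b had ratios of 1.42 in stromal-like, 2.84 in chondrocyte-like and 1.19 in tendon-like cells, and of 0.599 in osteoblast-like cells. Without the cell with the most Tnfrsf11b UMIs in each mouse the stromal-like ratio was 1.03 (0.762 to 1.39), since 1 old cell held 45 of 132 UMIs. Csf1 had ratios of 1.17 in fibroblast-like and 1.25 in tendon-like cells, and of 0.796 in osteoblast-like cells. At 2000 UMIs per cell, and so on fewer counts, the intervals of all 3 osteoblast-like ratios, of Tnfrsf11b in stromal-like cells and of Csf1 in tendon-like cells included 1.

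The log2 difference of Tnfsf11 between osteoblast-like and stromal-like cells was 0.50 at 6 months and −0.86 at 24 months, and that between mesenchymal CD24+ and CD24- cells was 0.50 at 6 months and −0.55 at 24 months. Whether the mice differ in these contrasts was not tested, since each contrast has 1 value per mouse.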

How the results depend on the processing

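Over the alternatives other than single mice, 185 log2 changes of members kept their side of the threshold and, where called, their direction. A further 3 no longer passed and 1 passed newly. The first were Tnfrsf11b over all kept cells (0.34 and 0.35, given above) and Il34 in mesenchymal CD24+ cells without the block, and the last was Csf1r over all kept cells at a 10% mitochondrial limit (−1.61, edgeR adjusted p 0.0316). Of the age ratios 68 moved by less than their counting interval and 10 by more (18 and 1 without the highest cell of each mouse, an alternative chosen after seeing the data), and of the levels 114 and 42. No direction of a called value reversed.

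With cells thinned to 2000 UMIs, intervals not including 1 fell from 10 to 5, and calls over all genes from 5478 to 3377 (osteoblast-like against stromal-like), from 2323 to 920 (chondrocyte-like against osteoblast-like), from 9332 to 5755 (CD24+ over all kept cells) and from 2664 to 936 (CD24+ in mesenchymal groups). The last count was 1654 with the 90th percentile threshold, 1236 with DESeq2 and 569 without the replicate block, the pairing of sums by library. The block changed no other member's call. With 1 mouse left out no residual spread remains, so counts could not be had. Thinning discards UMIs, which widens intervals and lowers the number of calls. An interval that includes 1 only after thinning is therefore no sign that a difference came from depth.

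Tnfrsf11b, Csf1 and Il34 were highest in the same group in both mice, except that thinned Csf1 was highest in neutrophil-like cells of the old mouse and that old chondrocyte-like cells numbered 17 under the stricter rule, fewer than the 20 needed for a level. Thinned Tnfsf11 was highest in stromal-like cells of both mice. With doublets removed the ratio of Tnfrsf11b in stromal-like cells was 2.08, against 1.42 with doublets kept. With doublets kept but without the highest cell of each mouse it was 1.03 (0.762 to 1.39). The value of 2.08 was not read without those highest cells.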

Other observations

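The ungrouped cells held much of the Tnfrsf11b. Split by Prg4 (lubricin, a gene of joint lining and superficial cartilage), a gene chosen after its values were seen, the 291 young and 136 old ungrouped cells with at least 10 Prg4 UMIs had 347 CPM (324 to 371) and 315 CPM (291 to 341) of Tnfrsf11b. The other ungrouped cells had 49.7 CPM (44.4 to 55.4) and 57.9 CPM (50.8 to 65.7). Tnfsf11 went the other way, at 8.27 and 8.66 CPM in the cells with Prg4 against 19.9 and 19.8 CPM in the others. Over all kept cells, those with at least 10 Prg4 UMIs had 154 and 161 CPM of Tnfrsf11b, against 23.6 and 20.3 CPM.

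In the barcodes removed by the filter, 1308 young and 1122 old, Tnfsf11 was at 5.63 and 7.99 CPM, Tnfrsf11b at 5.63 and 4.79 CPM and Csf1 at 81.3 and 81.0 CPM.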
